A study of Mus musculus with 6 samples.

Results

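Kallikrein-high tumor epithelial cells are the cells of mouse mammary tumor in which UMIs (unique molecular identifiers, 1 per captured transcript) of the kallikrein proteases Klk6 and Klk10 and of the secreted epidermal protein Dmkn outweigh those of 3 other epithelial programs. They were chosen by measured values: Epcam of at least 2 UMIs, Ptprc and Pecam1 at 0, Mki67 plus Top2a at most 1, and a summed count of Klk6, Klk10 and Dmkn of at least 4 that also exceeded the sums of Lalba, Fcgbp and Atp6v1b1, of Aqp5, Tspan8 and Cldn10, and of Ifit1, Ifit3 and Iigp1. The rule found 503 cells among 24527 deposited tumor cells. Of these deposited cells, 17562 held 200 to 4000 genes and at most 25% mitochondrial UMIs, and 9058 of those passed the epithelial gate on Epcam, Ptprc, Pecam1 and proliferation. The other 8555 gate cells are the comparison used throughout.

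Tumor tissue came from the 10-week-old female MMTV-PyMT model, in which a mammary tumor virus promoter drives the polyoma middle T oncogene in mammary epithelium. Minced tumor was digested with type I collagenase either for 60 min by a conventional protocol (control) or in a microfluidic platform from which cells were recovered at a 15 min and at a 60 min interval, and each suspension was treated with DNase I and red cell lysis buffer, sorted for live cells and loaded on a droplet chip. Every cell of the 3 libraries carries the same transgene, and no normal mammary gland was part of the comparison. All conditions of a replicate used tissue of the same mouse, per the reporting notes, and the platform intervals were collected one after the other from the same tissue. There was 1 library per condition, so no test between conditions exists, and the differences between libraries below have no replicate check.

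Tissue kallikreins are secreted serine proteases. In the upper epidermis several of them, chiefly Klk5 and Klk7, cut the corneodesmosin bridges that hold cornified cells together, and the inhibitor Spink5 restrains them. Dermokine (Dmkn) and suprabasin (Sbsn) are secreted by the same suprabasal keratinocytes. In mammary epithelium, luminal cells line the duct and make milk proteins and Krt8 and Krt18, while basal cells contract and make Krt5 and Krt14.

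The name of a keratinizing program was checked against its markers. Of the 5 marker genes given for the cells, Klk6, Klk10, Dmkn and Sbsn were at least 2 times higher than in the other gate cells in every library, and the first 3 of these were used to choose the cells. Krt17 was not: 7.55% of the cells held a UMI of it, and 71.9% of its UMIs came from 5 cells. Of 19 genes of the cornified envelope and its crosslinking enzymes, 13 had no UMI in any of the 503 cells, among them involucrin (Ivl), filaggrin (Flg) and Sprr1b. Loricrin (Lor) had 3 UMIs and Krt1 had 1 UMI in all 503 cells, whereas 97.2% of them held Krt8 and 99.0% held Krt18. Most genes of the cornified envelope list were thus absent or near 0. Others of the list were not: Cdsn, Evpl and Ppl were called higher, as given below, and Tgm1 had 55 UMIs in 40 cells. Asprv1, outside this list and described below, was found in 175 cells, with 54.6% of its UMIs in 5 of them. The cells are called kallikrein-high here as a short name for the rule. The name has its own limit: 136 of the 503 cells, and 50 of the 129 in the control, met the rule on Dmkn alone and held no UMI of Klk6 or Klk10.

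The 3 genes of the kallikrein sum and Sbsn sit in 2 clusters on chromosome 7. In GRCm38, Sbsn starts at position 30751471 and Dmkn at 30763756, and the kallikreins follow one another from Klk14 at 43690418 through Klk11 at 43774604, Klk10 at 43781035, Klk8 at 43797577 and Klk7 at 43811294 to Klk6 at 43824499. The 150 bases before the first RefSeq transcript start (GRCm38.p6, plus strand) are printed for the 4 marker genes that were higher in every library, because these genes name the cells. They lie at chr7:43824394-43824543 for Klk6, chr7:43780904-43781053 for Klk10, chr7:30763606-30763755 for Dmkn and chr7:30751321-30751470 for Sbsn. Capitals mark matches on either strand to CACCC, the core of a Kruppel-like factor site, or to TGANTCA, the AP-1 site of Fos and Jun proteins.
Klk6: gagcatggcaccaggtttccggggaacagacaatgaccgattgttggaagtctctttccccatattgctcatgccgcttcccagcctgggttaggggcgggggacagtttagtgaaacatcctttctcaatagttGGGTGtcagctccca
Klk10: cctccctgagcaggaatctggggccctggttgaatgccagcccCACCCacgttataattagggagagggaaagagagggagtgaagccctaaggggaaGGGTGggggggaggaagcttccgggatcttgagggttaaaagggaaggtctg
Dmkn: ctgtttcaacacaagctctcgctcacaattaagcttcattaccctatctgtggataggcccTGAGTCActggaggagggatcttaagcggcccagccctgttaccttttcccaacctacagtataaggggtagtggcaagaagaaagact
Sbsn: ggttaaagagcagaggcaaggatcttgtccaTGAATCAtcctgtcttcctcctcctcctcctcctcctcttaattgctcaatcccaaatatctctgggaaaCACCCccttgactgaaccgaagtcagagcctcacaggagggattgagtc
Both neighbours Dmkn and Sbsn held 1 AP-1 match in this window, a motif found in 4.24% of 32851 promoters searched the same way. CACCC was found once in the Klk6 window, at 2 places in that of Klk10 and once in that of Sbsn, against 37.4% of all promoters. The gene starts given above for Klk6 and Klk10 come from another annotation and lie inside these windows, and the Klk6 match lies past that start. At the second RefSeq start of Klk6 the window held no CACCC. Neither TATAAA, present in 7.57% of promoters, nor CCAAT, present in 24.5%, occurred in the 4 printed windows. None of the matches shown overlap, and a match describes letters only. The windows of Klk7, Klk8, Klk11 and Klk14 were searched too and held no AP-1 match. CACCC occurred before Klk7 and at the first start of Klk11, and not before Klk8 or Klk14.

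Kallikrein-high cells were found in every library and were most frequent at the 15 min interval. They made up 129 of 5736 kept control cells, or 2.25% (95% exact binomial interval 1.88 to 2.67%). At the 15 min interval they were 269 of 5802 cells, or 4.64% (4.11 to 5.21%), and at the 60 min interval 105 of 6024 cells, or 1.74% (1.43 to 2.11%). The 15 min share exceeded the control by 2.39 percentage points (95% Newcombe interval 1.73 to 3.06), and the 60 min share was below the control by an amount whose interval reached from -1.02 to 0.0000524 points. All intervals cover counting error only and say nothing of the spread between mice or preparations.

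The libraries also held different numbers of epithelial cells. Among gate cells, which numbered 3020, 3710 and 2328 in the control, 15 min and 60 min libraries, the shares were 4.27% (3.58 to 5.06%), 7.25% (6.44 to 8.13%) and 4.51% (3.70 to 5.43%). The 15 min excess over the control was then 2.98 points (1.87 to 4.08), and the 60 min difference was 0.239 points (-0.859 to 1.37). The 15 min interval ranked first under all 9 alternative settings tried, with a ratio to the control between 1.70 and 2.31.

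**Figure D1:**
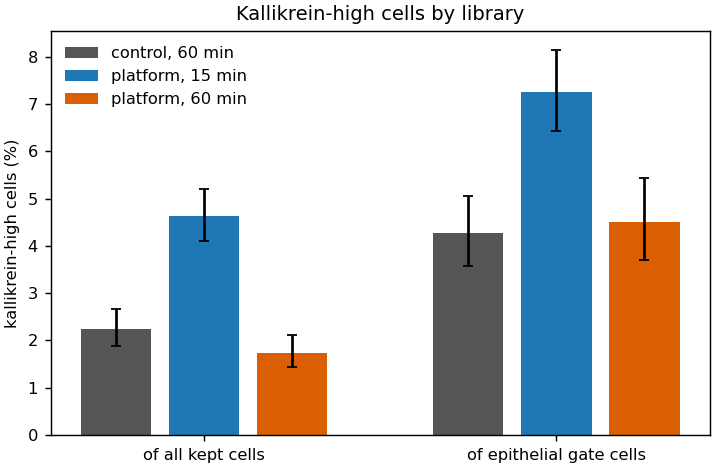
Percentage of cells that met the kallikrein-high rule (vertical axis) in each of the 3 tumor libraries, of all kept cells (left) and of epithelial gate cells (right), with bars from 0 and lines for 95% exact binomial intervals. The 15 min bar is the highest in both groups, at 4.64% and 7.25%.

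The cells were somewhat deeper than their neighbours in the gate. Their median UMI count was 11124 in the control library, 10354 at 15 min and 11330 at 60 min, against 8530, 9753 and 9052 in the other gate cells, and their median mitochondrial share was 6.97, 6.64 and 8.32% against 9.87, 8.09 and 10.2%. The deposited libraries held 8152 to 8198 cells and 90414805 to 101222030 UMIs, and 1 of the 57 barcodes found in more than 1 library belonged to a kallikrein-high cell. The doublet caller Scrublet marked 1.93% of all tumor cells and 1 kallikrein-high cell, and marked cells were kept. The rule was also applied after thinning every cell to 5000 UMIs, which gave shares of 2.18, 4.59 and 1.70% of kept cells.

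The summed count of Klk6, Klk10 and Dmkn, called the kallikrein sum below although Dmkn is no kallikrein, ran from 4 to 454 UMIs, with quartiles of 9, 19 and 39. Just inside the limit were 35 cells with a sum of 4 and 27 with a sum of 5, and just outside it were 23 cells with a sum of 3 that exceeded the other sums. A further 319 gate cells had a sum of at least 4 that did not exceed every other program. Within the members the other programs were often present at a lower level: 16.9% held at least 4 UMIs of the Lalba sum, 20.9% of the Aqp5 sum and 2.39% of the interferon sum. The limit on Mki67 and Top2a left out 24 cells that met the rest of the rule, 11.3% of the 212 proliferating epithelial cells.

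Klk10 and Dmkn carried the selection, and Klk6 was a gene of few cells. Dmkn was detected in 417 of the 503 cells (82.9%), Klk10 in 348 (69.2%) and Klk6 in 92 (18.3%). All 3 genes were seen together in 66 cells (13.1%), exactly 2 of them in 222 and exactly 1 in 215, of which 136 had only Dmkn and 78 only Klk10. Thinned to 3000 UMIs, the shares were 69.3, 62.9 and 12.0%. In leukocytes of the same tumors, at a median of 10347 UMIs against 10802 in the members, the thinned shares were 0.780% for Dmkn, 0.408% for Klk10 and 0.0742% for Klk6. The 5 highest cells gave 54.7% of all Klk6 UMIs and 10.5% of those of Klk10.

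Detection of the 2 proteases and Dmkn was also counted over all gate cells, which include the kallikrein-high cells chosen on these genes, so the shares describe and do not test. Among gate cells thinned to 3000 UMIs, Dmkn was detected in 50.5, 47.4 and 44.4% of cells with Klk10 in the control, 15 min and 60 min libraries, and in 12.4, 11.4 and 9.93% of cells without it. Klk6 was detected in 5.26, 12.0 and 13.1% of cells with Klk10 and in 0.191, 0.304 and 0.288% of those without.

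Kallikreins outside the rule were compared in the same way as all genes. The UMIs of each gene were summed over the kallikrein-high cells and over the other gate cells of a library and expressed as CPM (counts per 1000000 UMIs), and a gene was called where the ratio was at least 2, or at most 0.5, in each of the 3 libraries. Of 7647 genes with a mean of at least 10 CPM, 5.51% were called higher and 2.72% lower by this rule. Because the cells were chosen on their counts, these ratios describe them and are not tests. A gene averaging under 10 CPM in the other gate cells passed the filter only through the kallikrein-high cells, and could be called higher but not lower. Of 13 tissue kallikreins, 6 passed the level filter and were called, but Klk6 and Klk10 are rule genes and the others passed the filter only through their level in the kallikrein-high cells, so this count supports nothing. Klk1, Klk4 and Klk15 had no UMI in these cells and Klk5, Klk9, Klk12 and Klk13 stayed under the filter.

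Klk10 averaged 1172, 2016 and 1536 CPM in the kallikrein-high cells of the control, 15 min and 60 min libraries, against 5.04, 16.7 and 8.85 CPM in the other gate cells. Dmkn stood at 1344, 1212 and 1089 CPM against 55.5, 47.2 and 38.0 CPM. Klk6 stood at 73.3, 426 and 512 CPM against 0.0736, 0.784 and 0.186 CPM, and the control value was the lowest of the 3 libraries. These 3 genes chose the cells, so the distance between the summed levels is set by the rule; single cells overlapped, since most members held no Klk6 and 319 other gate cells had a sum of at least 4.

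Klk8 (neuropsin) reached 50.9, 127 and 83.6 CPM against 2.87, 4.44 and 4.56 CPM, ratios of 17.7, 28.7 and 18.3. Klk14, an activator of other kallikreins, reached 37.3, 193 and 141 CPM against 1.99, 2.79 and 3.03 CPM. Klk11 reached 36.0, 41.5 and 48.7 CPM against 0.589, 1.34 and 0.559 CPM. They were spread over more cells than Klk6 was: Klk8 was found in 145 cells, Klk11 in 114 and Klk14 in 98. Klk7, a protease of corneodesmosome shedding, reached 27.8, 39.1 and 93.4 CPM against 0.0368, 0.319 and 0.0931 CPM, but only 17 cells held it and 5 of them gave 77.5% of its UMIs. Thinned shares in leukocytes were 0% for Klk7, Klk11 and Klk14 and 6.64% for Klk8, against 14.6% for Klk8 in the kallikrein-high cells.

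Protease inhibitors went in both directions. Spink5, the epidermal kallikrein inhibitor, reached 196, 227 and 175 CPM against 11.1, 14.7 and 9.13 CPM, and 151 cells held it. Of 8 inhibitors tested, Spink5 and Cst6 were called higher and cystatin C (Cst3) lower, at 277, 288 and 276 CPM against 975, 2032 and 1191 CPM. Cystatins inhibit cysteine proteases and not kallikreins. Cst6, an epidermal cystatin, rested on 32 cells, and at the 60 min interval 96.1% of its UMIs came from 1 cell. Cst6 also passed the level filter only through the kallikrein-high cells. The hepatocyte growth factor activator inhibitors Spint1 and Spint2 and the membrane protease matriptase (St14) stayed between 0.940 and 1.69 times the other gate cells. F2rl1, the protease-activated receptor that kallikreins can cut, was the only called gene among the 4 membrane proteases and receptors tested, at 54.9, 69.0 and 90.9 CPM against 16.7, 10.4 and 12.5 CPM.

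**Figure D2:**
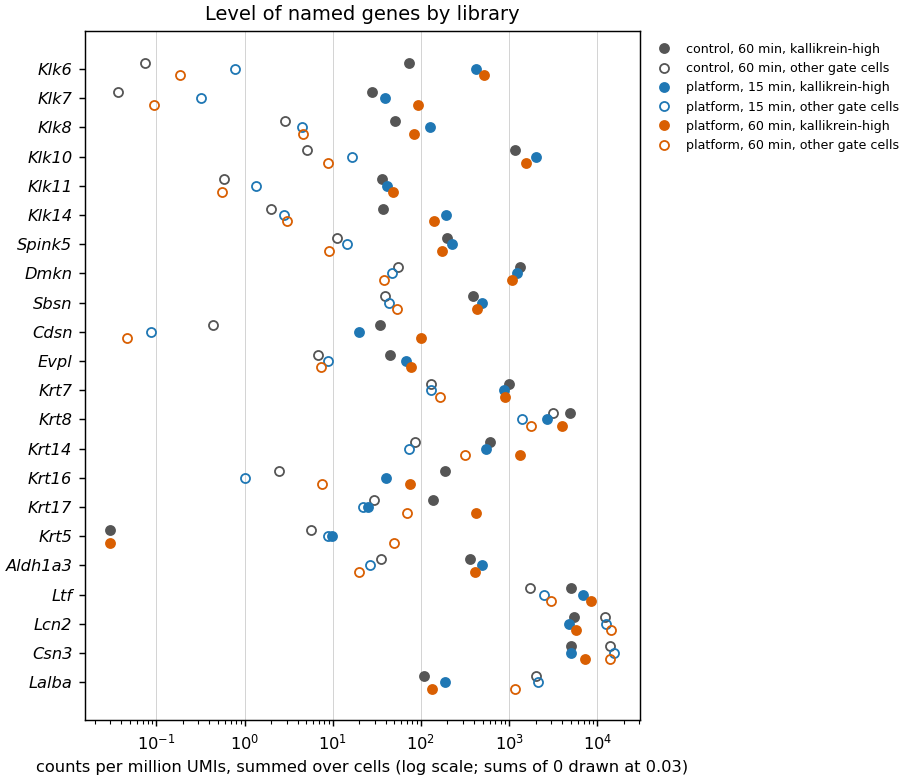
Level of named genes in CPM (horizontal axis, log scale, 0 drawn at 0.03) in kallikrein-high cells (filled circles) and in the other gate cells (open circles) of the 3 tumor libraries, colored by library. Filled circles of the 6 kallikreins lie to the right of the open ones in every library, those of Lcn2, Csn3 and Lalba to the left, and those of Krt17 overlap them.

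The epidermal side of the program was partial. Of 9 suprabasal keratinocyte genes tested, 5 were called higher: Dmkn, Sbsn, Lypd3, Ly6g6c and Lgals3. Dmkn is a rule gene, and Ly6g6c passed the level filter only through the kallikrein-high cells. Sbsn stood at 387, 496 and 427 CPM against 39.6, 43.4 and 53.8 CPM and was held by 305 cells. Lgals3 (galectin-3) stood at 2263, 1216 and 1230 CPM against 415, 289 and 273 CPM. Ly6g6c, a small anchored surface protein, stood at 87.5, 41.9 and 54.4 CPM against 1.55, 0.552 and 0.373 CPM. Krt10, a defining keratin of the suprabasal layers, was at 9.50, 8.80 and 27.6 CPM against 17.9, 18.2 and 19.8 CPM, and was not called. Only 3 of the 19 cornified envelope genes passed the level filter, and these were corneodesmosin (Cdsn), envoplakin (Evpl) and periplakin (Ppl), all called. Cdsn and Evpl passed it only through their level in the kallikrein-high cells, so this count adds no support. Evpl and Ppl are plakins that also occur outside the skin, and Cdsn rested on 34 cells, 5 of which gave 73.9% of its UMIs.

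Keratins of the duct lining were all present, and Krt7 and Krt19 stood out. Krt7 was at 1008, 885 and 900 CPM against 129, 130 and 163 CPM, and Krt19 at 1224, 1428 and 1170 CPM against 423, 340 and 364 CPM. Krt8 was at 4871, 2716 and 3930 CPM against 3142, 1398 and 1747 CPM, and Krt18 differed less, with ratios of 1.33, 1.19 and 1.47. Neither Krt8 nor Krt18 was called.

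Keratins of stress and of the basal layer differed in how many cells held them. Krt80 was called at 76.6, 44.7 and 37.3 CPM against 3.57, 2.50 and 2.37 CPM and was found in 127 cells. Krt16, a keratin of wounded skin, was called at 186, 40.1 and 74.7 CPM against 2.47, 1.02 and 7.59 CPM, but 19 cells held it. Both Krt80 and Krt16 passed the level filter only through the kallikrein-high cells. Krt17 stood at 137, 24.99 and 421 CPM against 29.1, 22.04 and 70.4 CPM. Krt14 was called at 608, 547 and 1326 CPM against 86.4, 72.3 and 320 CPM and was found in 212 cells. Its basal partner Krt5 was found in 2 cells, both at the 15 min interval, and the basal factor Trp63 and the contractile actin Acta2 were at 2.71 CPM or less in each library. Krt14, Krt16 and Krt17 share near-identical stretches, so the split of their reads is uncertain. Without the 5% of kallikrein-high cells highest for each gene, Krt14 had ratios of 2.70, 1.32 and 0.939 and Krt16 had no UMI left in any library. The other gate cells were not trimmed, which lowers every ratio, and Krt16 was held by too few cells to outlast this step.

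Some junction genes were higher. Of 8 desmosome genes tested, 4 were called higher: the plakophilin Pkp1, the plakin desmoplakin (Dsp), the cadherin Dsc2 and the p53 target Perp. The share called higher over all genes was 5.51%. Pkp1 and Dsc2 averaged under 10 CPM in the other gate cells. They passed the level filter only through the kallikrein-high cells and could be called higher but not lower. Dsp stood at 119, 118 and 90.9 CPM against 29.0, 40.5 and 32.6 CPM. Of 8 tight junction genes, 2 were called, and of these the claudin Cldn4 stood at 832, 309 and 784 CPM against 223, 53.5 and 121 CPM. The median log2 ratio was 1.14 over the desmosome genes and 1.12 over the tight junction genes, against 0.11 over all genes tested. The desmosome median includes Pkp1 and Dsc2. Of 7 genes of laminin-332, its integrins and migrating epithelium, only Plaur, the urokinase receptor, was called.

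Among 17 transcription factors of epithelial differentiation, 4 were called higher, including Klf4, Ovol1 and Zfp750. Klf4, a barrier factor of the epidermis, stood at 667, 832 and 713 CPM against 150, 93.6 and 119 CPM. Ovol1 stood at 136, 34.8 and 73.1 CPM against 43.0, 4.65 and 19.8 CPM. Zfp750 was nearer the limit, with a lowest ratio of 2.07, and lost the call with edgeR's TMM scaling. The AP-1 members Fosl1 and Fosl2 had ratios between 1.37 and 2.13 and were not called, and Gata3, which maintains luminal cells, was below 1 in each library at 0.337, 0.527 and 0.595.

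In the EGF receptor family, 3 of 6 genes tested were higher, against 5.51% of all genes. Areg averaged under 10 CPM in the other gate cells and passed the level filter only through the kallikrein-high cells. The ligands Areg and Hbegf reached lowest ratios of 3.92 and 2.67, and the receptor Erbb3 2.13, a call lost with TMM scaling. Hbegf stood at 772, 183 and 441 CPM against 289, 35.6 and 130 CPM, and its 15 min value was the lowest in both groups of cells. Egfr and Erbb2 were not called.

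Of 12 milk and lactation genes tested, 6 were called lower, among them the rule gene Lalba, 1 was called higher, lactoferrin (Ltf), and 5 were not called. Lalba, which the rule held below the kallikrein sum, stood at 107.2, 185 and 133 CPM against 1993, 2131 and 1175 CPM. Wap stood at 15.6, 19.7 and 21.9 CPM against 84.7, 90.6 and 82.3 CPM, and the transferrin gene Trf at 2459, 1802 and 2129 CPM against 7785, 9064 and 7356 CPM. Ltf stood at 5094, 6859 and 8573 CPM against 1724, 2483 and 2967 CPM, and the whey acidic protein domain gene Wfdc18 was not called.

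Genes of luminal progenitors split in direction. Kit, Aldh1a3 and Ltf were called higher and Lcn2 and Hey1 lower, out of 8 tested. Aldh1a3, a retinoic acid enzyme, stood at 360, 497 and 414 CPM against 35.1, 26.5 and 19.8 CPM, and its ratio remained between 5.31 and 11.2 without the 5% of cells highest for it. Lcn2 stood at 5423, 4801 and 5675 CPM against 12336, 12568 and 14106 CPM. In the list of hormone-sensing luminal genes, Ly6a and Areg were called and no other, and Areg passed the level filter only through the kallikrein-high cells.

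Lists of response genes gave few calls. Of 9 interferon-stimulated genes tested, only Iigp1 was called, lower, and the rule used it. Of 12 genes from the study's dissociation stress list, Atf3 alone was called, higher, at 2066, 1333 and 2747 CPM against 925, 483 and 949 CPM, while Fos, Jun, Egr1 and the other 8 were not. Of 15 hypoxia and glycolysis genes, 0 were called higher and 1 lower. No antigen presentation gene of class I was called among 6.

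Markers of other cell types were mostly near 0, and fibroblast genes were above the other gate cells at 15 min. Cd3e and Trac were at 0, Csf3r and Kdr at 0.812 CPM or less, and the 10 macrophage genes summed to 65.1, 67.2 and 74.7 CPM against 91.0, 76.0 and 138 CPM. Endothelial genes summed to 6.10, 7.39 and 5.68 CPM. Pericyte genes summed to 27.8, 35.6 and 27.6 CPM against 22.7, 31.5 and 25.7 CPM, of which Notch3 gave nearly all, and the defining pericyte genes Rgs5 and Pdgfrb were at 0. The 7 fibroblast genes summed to 10.2, 240 and 44.7 CPM against 17.1, 32.5 and 264 CPM, and 0 of the 4 tested was called, while the fibroblast marker Pdgfra had 5 UMIs at most in a library. At 15 min, 5 cells gave 96.3% of the Col3a1 UMIs of the kallikrein-high cells.

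Genes outside every list widen the description. The 20 with the largest smallest ratio included the transmembrane protein Dynap, the peptidase-domain protein Pamr1, Cwh43, surfactant protein D (Sftpd), the planar polarity cadherin Celsr1, the forkhead factor Foxq1, the matrix protease Adamts1, the carnitine synthesis enzyme Bbox1 and the chitinase Chit1. Pamr1 stood at 40.02, 65.8 and 40.6 CPM against 1.14, 2.50 and 1.26 CPM and was found in 125 cells. Foxq1 stood at 51.5, 95.7 and 72.2 CPM against 4.08, 4.94 and 3.03 CPM in 158 cells. Adamts1 stood at 326, 186 and 362 CPM against 26.4, 13.2 and 22.2 CPM in 198 cells. Cartpt, a neuropeptide, was also among them, but 12 cells held it and 5 of these gave 95.6% of its UMIs. Of the genes named here, all but Adamts1 averaged under 10 CPM in the other gate cells and could be called higher but not lower.

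The 10 genes furthest below included the peptide hormone Cck, the TGF-beta anchor Lrrc32, the exchange factor Arhgef6, Tmem37, haptoglobin (Hp) and Sparcl1. Arhgef6 stood at 6.78, 8.80 and 8.12 CPM against 96.5, 147 and 125 CPM. Cck stood at 0.678, 0.352 and 1.62 CPM against 29.7, 39.6 and 46.1 CPM.

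The comparison was repeated against each of the other 3 programs in turn. Cells of the Lalba program numbered 4271, of the Aqp5 program 2310 and of the interferon program 118. Of the 7647 genes, 3.13% were at least 2 times higher than in each of the 3 programs in every library and 1.03% at most 0.5 times. All 6 kallikreins tested, Spink5, Sbsn, Krt7, Krt19, Klf4 and Aldh1a3 remained among the 239 higher genes, and Ovol1, Zfp750, Ltf and Kit did not. For the kallikreins this adds no support, since the rule and the level filter had favoured them.

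Across all genes, 421 were called higher and 208 lower than in the other gate cells, so that 66.9% of the calls were higher. With TMM scaling, which moved the median log2 ratio of all genes from 0.11 to -0.03, 355 were higher and 281 lower, and 55.8% of the calls were higher. The 6 kallikreins were called under both scalings, but the rule and the level filter had favoured them, so this adds no support. With the 5% of kallikrein-high cells highest for each gene left out, 197 genes remained higher, and of the kallikreins only Klk7 lost its call. The other gate cells were not trimmed, which lowers every ratio. Klk7 was held by 17 of the 503 cells, so few that this step left no UMI of it.

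A large part of the higher genes lay together on the distal part of chromosome 11. Of 688 genes tested on chromosome 11, 139 were called higher (20.2%), whereas the other chromosomes gave 1.60 to 6.67%. In windows of 10 Mb, 2 windows of chromosome 11 from 110 Mb to its end ranked first and second of 230, with median log2 ratios of 1.90 and 1.80, and no other window passed 0.45. Klk6, Klk10 and Dmkn are on chromosome 7. Of the genes that set the gate, Pecam1, which had to be at 0 in every gate cell, lies within this distal part of chromosome 11, and Top2a lies before it. The stretch was delimited after its values were seen and copy number was not measured.

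From Dcaf7, which starts at 106036872, to the last gene tested (Metrnl, which ends at 121716306), 119 of 159 genes were called higher (74.8%, against 5.51% of all genes) and 0 lower. Their median ratio was 3.65, 3.99 and 3.76 in the control, 15 min and 60 min libraries, and 149 of them were above 1 in every library. On the rest of chromosome 11, 20 of 529 genes were higher (3.78%) and the median log2 ratio was 0.03. The edge is not sharp. Before it, Mettl2 had ratios of 1.35, 1.87 and 2.61, Tlk2 of 1.68, 1.39 and 2.31, and Cyb561 of 2.83, 2.25 and 2.96, which meets the call. Ace, which starts at 105967945, had ratios of 0.660, 0.414 and 0.494, and the next gene tested, Dcaf7, had ratios of 4.78, 5.44 and 4.64. In the other 3 programs the same genes had median log2 ratios of -0.75 to -0.02 against the rest of the gate. That rest includes the kallikrein-high cells, whose level of these genes lowers the ratios.

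**Figure D3:**
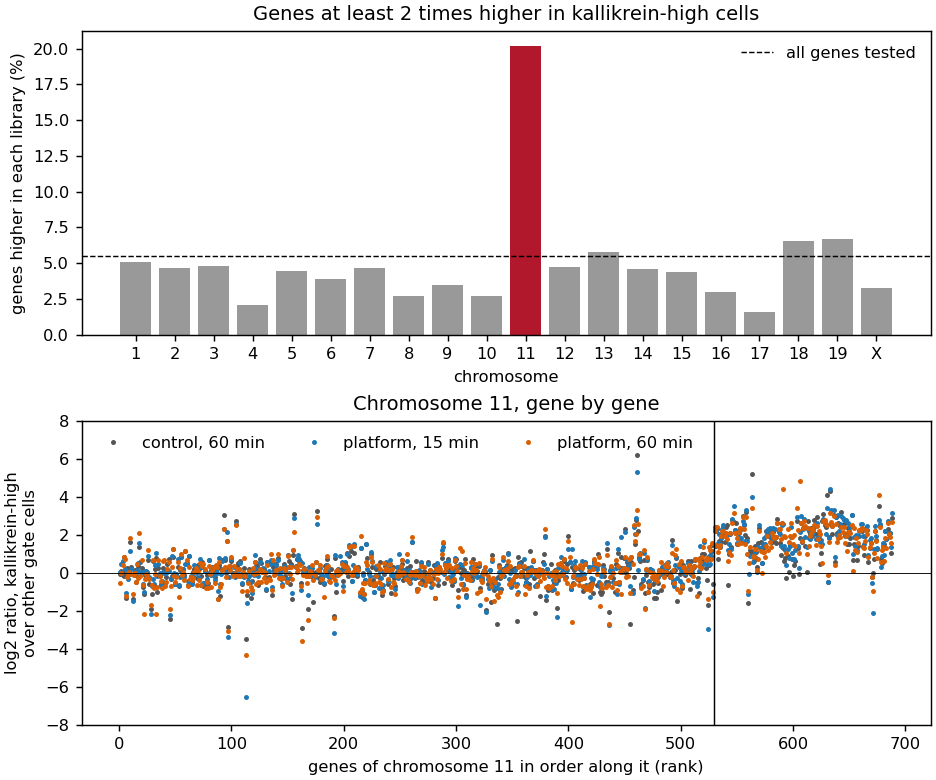
Top, percentage of tested genes called higher in kallikrein-high cells on each chromosome (bars from 0) with the 5.51% of all genes as a dashed line; bottom, log2 ratio of kallikrein-high to other gate cells for each tested gene of chromosome 11 in its order along the chromosome, colored by library, with a vertical line at the first gene of the distal stretch. Chromosome 11 stands at 20.2%, and the genes right of the line lie mostly between 1 and 3 while those left of it scatter around 0.

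Genes of this stretch had varied roles. Wipi1, an autophagy protein, stood at 439, 652 and 433 CPM against 46.4, 66.4 and 55.7 CPM. The signal adaptor Grb2 stood at 517, 467 and 410 CPM with ratios of 7.07, 6.20 and 6.11, and the splicing factor Eif4a3 at 595, 588 and 432 CPM with ratios of 7.78, 7.72 and 5.90. The metalloproteinase inhibitor Timp2 stood at 1942, 1393 and 829 CPM with ratios of 17.6, 10.8 and 5.69. Some genes there did not share the increase: the ribosomal gene Rpl38 had ratios of 1.26, 1.04 and 1.12, Lgals3bp of 0.707, 0.708 and 0.918, and Fam20a of 0.333, 0.468 and 0.510. Evpl and Zfp750, described above with the epidermal genes, start at 116220559 and 121510978 within the stretch, and Krt14, Krt16, Krt17 and Krt19 lie before it.

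In single cells the genes of the stretch took a median of 7.61% of all UMIs in kallikrein-high cells, at 6.37, 7.74 and 7.61% in the control, 15 min and 60 min libraries. The median was 1.71% in cells of the Lalba program, 1.93% in those of the Aqp5 program, 2.13% in those of the interferon program and 1.84% in gate cells of no program. It was 1.59% in leukocytes, 1.48% in endothelial cells and 1.31% in fibroblasts. Without the 5 most abundant genes of the stretch, the kallikrein-high cells stood at 3.65% and the other epithelial classes at 0.714 to 0.793%. Cells of every class were measured in the same libraries.

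**Figure D4:**
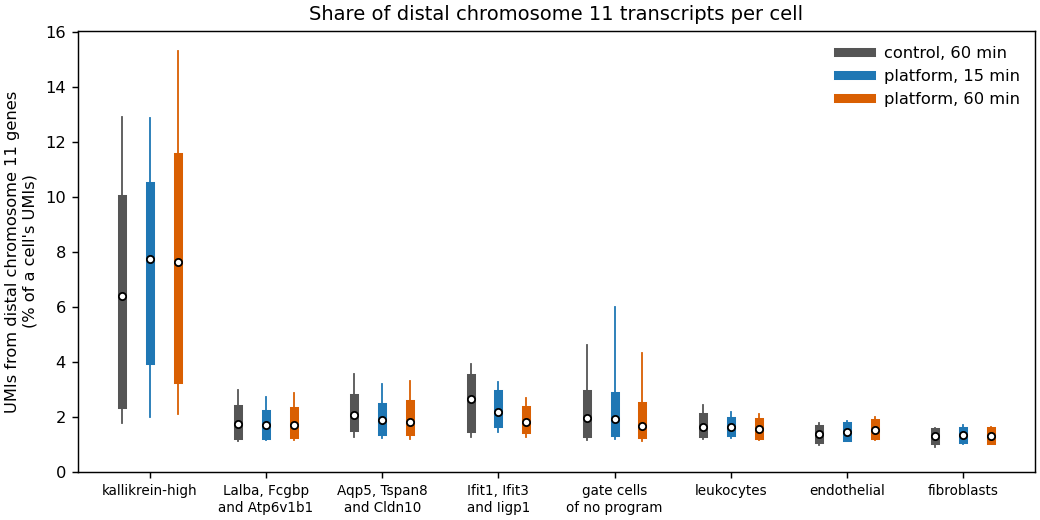
Percentage of a cell's UMIs from genes of the distal stretch of chromosome 11 (vertical axis) in 8 classes of tumor cells and 3 libraries; circles are medians, thick bars quartiles and thin lines the 10th to 90th percentile. Medians of kallikrein-high cells are 6.37 to 7.74%, and those of all other classes are 2.65% or lower.

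The kallikrein-high cells were not uniform in this measure. At least 5% of UMIs came from the stretch in 340 of the 503 cells (67.6%), at 57.4, 71.4 and 70.5% in the control, 15 min and 60 min libraries, and 49 cells lay between 4 and 6%. The same level was reached by 0.913% of Lalba program cells, 2.25% of Aqp5 program cells, 9.32% of gate cells of no program and 0 of 2987 leukocytes. In all, 607 gate cells reached it, of which 56.0% were kallikrein-high and 164 had no UMI of Klk6, Klk10 or Dmkn. The share of cells at 5% or more went with the kallikrein sum: 45.2% of kallikrein-high cells with a sum of 4 or 5, 60.8% of those with 10 to 19 and 93.3% of those with 50 or more. Kallikrein-high cells at or above 5% also had a median sum of 26 against 11 in those under it. Of the 24 proliferating cells that met the rest of the rule, 14 were at or above 5%.

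The 340 cells at or above 5% and the 163 under it differed in many genes elsewhere in the genome. Of 7414 genes outside the stretch, 134 were at least 2 times higher in the first group in each library (1.81%) and 87 at most 0.5 times (1.17%). Klk14 stood at 64.4, 277 and 193 CPM in the first group against 3.07, 5.68 and 14 CPM in the second. Klk8 stood at 79.0, 176 and 108 CPM against 15.4, 19.3 and 25.2 CPM, and Klk11 at 53.4, 55.1 and 65.2 CPM against 13.8, 11.4 and 8.40 CPM. Klk7 had no UMI in the second group in any library. Klk6 stood at 131, 605 and 720 CPM against 0, 28.4 and 2.80 CPM. Each of these kallikreins was higher in the first group in every library. Klk7 and Klk14 averaged under 10 CPM in the second group, so they met the level filter only through the first and add no support. Over all kallikrein-high cells, 5 cells gave 77.5% of the UMIs of Klk7, 54.7% of those of Klk6 and 39.4% of those of Klk14.

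Of 9 suprabasal genes tested in this split, Sbsn and Ly6g6c were higher in the first group in each library and Ly6d lower. Of 3 cornified envelope genes outside the stretch, Cdsn was higher. Ly6g6c and Cdsn averaged under 10 CPM in the second group, so they met the level filter only through the first. Spink5 stood at 345, 308 and 223 CPM against 7.68, 45.4 and 58.8 CPM, and Sbsn at 536, 634 and 562 CPM against 200, 191 and 95.2 CPM. Asprv1, a protease of the granular layer, stood at 668, 509 and 141 CPM against 15.4, 27.2 and 30.8 CPM, with 54.6% of its UMIs in 5 cells. The plakin Evpl stood at 76.5, 93.9 and 103 CPM against 4.61, 11.4 and 14 CPM, and it lies in the stretch itself. Dmkn did not follow in every library, at 1785, 1204 and 1216 CPM against 785, 1230 and 776 CPM.

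Other genes were higher in the second group. Of 10 milk and lactation genes tested in this split, 5 were lower in the first group in each library and 0 higher. Csn3 stood at 8596, 9122 and 13066 CPM there against 2279, 3149 and 4876 CPM in the first group. Lalba stood at 167, 322 and 218 CPM against 59.5, 124 and 98.3 CPM, below the 2037, 2172 and 1209 CPM of the remaining gate cells under 5%. The rule held the Lalba sum below the kallikrein sum in both groups, so the distance to the remaining gate cells was shaped by the choice. The acute phase gene Saa1 stood at 659, 145 and 932 CPM against 6.07, 2.04 and 1.14 CPM, and the antiprotease Slpi at 579, 313 and 613 CPM against 24.3, 33.7 and 70.9 CPM. Few cells set these last values: 39 of the 503 cells held Saa1 with 72.7% of its UMIs in 5 of them, and 1 control cell gave 55.9% of the control Slpi UMIs. At least 4 UMIs of the Lalba sum were found in 33.7% of the second group and 8.82% of the first. Aldh1a3 and Ltf did not separate the groups by the same rule, with ratios of first to second of 1.26 to 1.94 and 0.600 to 1.06.

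**Figure D5:**
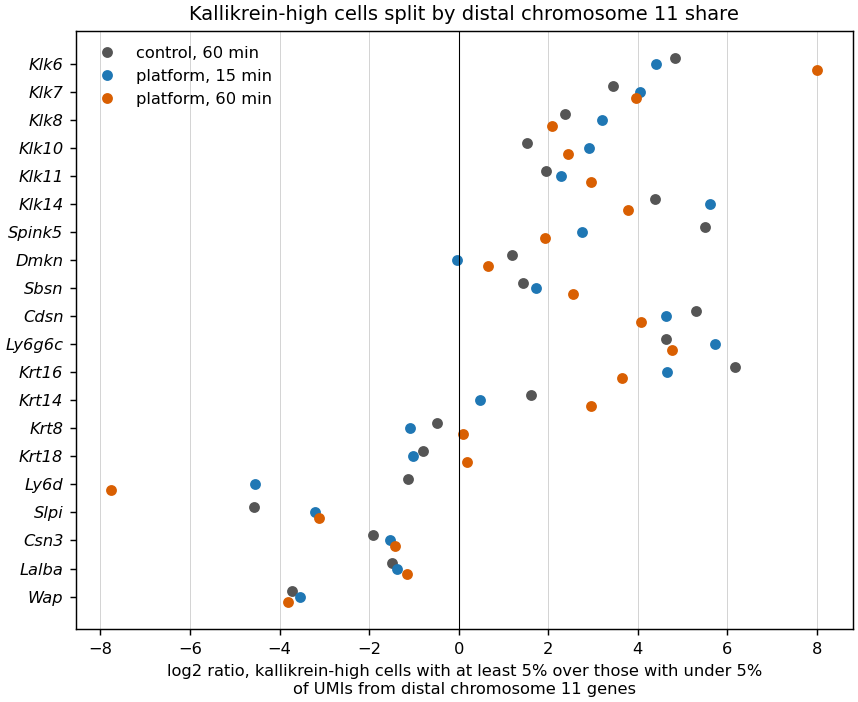
Log2 ratio of CPM in kallikrein-high cells with at least 5% to those with under 5% of UMIs from the distal stretch of chromosome 11 (horizontal axis) for named genes outside the stretch, 1 point per library, with sums of 0 set to a floor of 3 counts. Kallikreins, Cdsn, Ly6g6c and Krt16 lie to the right of 0 in each library and Slpi, Csn3, Lalba and Wap to the left, while Dmkn lies at 0 at the 15 min interval.

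Both groups were compared with the remaining gate cells that were themselves under 5%. Over the genes of the stretch, the first group had a median ratio of 6.09, 5.72 and 5.41. The second group had a median ratio of 1.14, 1.35 and 1.32. All these cells were sorted by their share of UMIs from the same genes. The choice itself therefore sets these ratios apart, and the contrast adds no support. With only the second group as kallikrein-high cells, 75 genes were called higher and 93 lower than in the other gate cells, and 2 kallikreins were called. With only the first group, 579 were higher and 318 lower. These counts include the genes of the stretch by which the groups were sorted, and the groups differ in size and in kallikrein sum. The difference between the counts is therefore partly set by the choice and adds no support.

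Cells at or above 5% that were not kallikrein-high shared part of the description. They numbered 267, with 86, 108 and 73 in the control, 15 min and 60 min libraries. Klk10 stood at 32.5, 219 and 29.8 CPM in them against 4.21, 10.4 and 8.07 CPM in the other gate cells under 5%, and Sbsn at 96.2, 162 and 436 CPM against 37.9, 39.7 and 39.5 CPM. Dmkn stood at 32.5, 63.3 and 42.7 CPM against 56.2, 46.7 and 37.9 CPM, and Lalba at 555, 820 and 247 CPM against 2037, 2172 and 1209 CPM. Klk10 and Dmkn both entered the sum by which the rule kept these cells out, which limits how high either could be. Lalba entered a competing sum of that rule, so its level was also shaped by the choice, while Sbsn entered no sum.

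The 10 genes whose levels ran most alike with the kallikrein sum across gate cells included Wipi1, Pgs1, Eif4a3, Klk11, Psmc5, Grb2, Cwh43, Slc5a8 and Smurf2. Likeness was Pearson's r of log-scaled values over 3020, 3710 and 2328 cells, ranked by the lowest library, and cells of a library share its depth and its free RNA. Wipi1 had r of 0.355, 0.514 and 0.395 in the control, 15 min and 60 min libraries, and Smurf2, the last of the 10, had 0.296, 0.447 and 0.338. Of the 10 genes 6 lay in the distal stretch of chromosome 11, and of the first 40 genes 22 did. The sodium-coupled monocarboxylate transporter Slc5a8 was higher in the kallikrein-high cells at 296, 405 and 342 CPM against 55.6, 68.4 and 63.4 CPM.

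Classes of the kallikrein sum showed which genes went with it. With cells thinned to 3000 UMIs, Spink5 stood at 22.6 CPM (95% exact Poisson interval 6.16 to 57.9) in 59 cells with a sum of 4 or 5, at 44.8 CPM (20.5 to 85.0) in 67 cells with 6 to 9 and at 281 CPM (250 to 313) in 373 cells with 10 or more. Klk14 stood at 17.0, 19.9 and 223 CPM in the same classes. Krt8 stood at 3328, 4184 and 2974 CPM and Csn3 at 4164, 5871 and 4616 CPM, with no order along the sum.

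The kallikrein-high cells of the 3 libraries were also compared with each other, with no replicate of any library. Over 7593 genes tested, the 15 min cells had 366 genes at least 2 times above the control cells (4.82%) and 145 at most 0.5 times (1.91%). The 60 min cells had 229 above (3.02%) and 187 below the control (2.46%), and 126 above (1.66%) and 252 below the 15 min cells (3.32%). The comparisons share libraries. The median log2 ratio over all genes was 0.20, -0.03 and -0.21 in the 3 comparisons. With TMM scaling the 15 min cells had 191 genes above the control and 219 below, and the 60 min cells 197 above the 15 min cells and 104 below.

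The genes furthest below the control at 15 min included cytokines and immediate early genes. The granulocyte factor Csf3 stood at 164, 1.41 and 9.74 CPM in the control, 15 min and 60 min libraries, the chemokine Cxcl2 at 781, 24.6 and 479 CPM, and the AP-1 gene Fosl1 at 58.3, 3.17 and 26.0 CPM. In each of these the 15 min value was the lowest. Over the 3 libraries, Csf3 was held by 22 of the 503 cells, Cxcl2 by 97 and Fosl1 by 65. For each gene 5 cells gave 76.7, 52.3 and 20.5% of the UMIs. The 15 min value was also the lowest in the other gate cells, with Csf3 at 90.2, 0.378 and 21.4 CPM, Cxcl2 at 131, 15.0 and 165 CPM and Fosl1 at 42.7, 1.95 and 12.2 CPM. The inducible repressor Tiparp stood at 201, 9.86 and 39.8 CPM and was spread over 56, 20 and 23 cells.

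The 10 genes furthest above the control at 15 min included the matrix genes Col3a1, Dcn and Fbn1 and also Krt79, Ly6c1 and Ankrd1. Col3a1 stood at 3.39, 115 and 14.6 CPM, Dcn at 2.03, 56.0 and 2.43 CPM and fibrillin (Fbn1) at 0.678, 36.3 and 1.62 CPM. At 15 min these came from 17, 8 and 6 of 269 cells, and 1 cell gave 40.1, 50.3 and 49.5% of their UMIs. Fibroblasts express all 3 genes, and the part of fibroblast RNA in these cells was not tested.

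Single cells also set several of the largest differences at 60 min. Cst6 stood at 14.9, 9.15 and 209 CPM, with 96.1% of its 60 min UMIs in 1 cell. Krt17 stood at 137, 24.99 and 421 CPM, with 48.6% of its 60 min UMIs in 1 cell. The ciliary factor Foxj1 stood at 12.9, 28.2 and 103.9 CPM, held by 10, 17 and 9 cells. Saa3, at 97.7 CPM in the control and 0.704 and 2.43 CPM at the intervals, came from 1 control cell. Klk6 was 6.99 times the control at 60 min and was held by 16, 51 and 25 cells, of which 5 gave 81.5, 70.7 and 86.2% of its UMIs. Klk10, Dmkn and Sbsn, held by most cells, differed between libraries by less than 2 times.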

How the data were processed

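Live-sorted cells of 3 tumor libraries were profiled with droplet chemistry (10x, version 3 kit per the labels). According to the methods and processing notes the authors aligned reads to mm10 with Cell Ranger 3.1.0, evened read depth between libraries with its aggregation step and deposited UMI counts (whole numbers, each gene by each cell), so UMIs removed by that step are not recovered here. The library of a cell was read from its barcode suffix through the deposited aggregation table.

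Cells with 200 to 4000 genes and at most 25% mitochondrial UMIs were kept. Members and gene lists were chosen with earlier results of these data known, and the distal chromosome 11 stretch and its 5% limit after values were seen. UMIs were summed over cells per library (CPM), with 1 library per condition and no test. Genes with a mean of at least 10 CPM were compared, and a call needed a ratio of at least 2 or at most 0.5; a sum of 0 was set to 3 counts per library. Named genes were the rule and marker genes, up to 4 called genes per list and direction, the 20 highest and 10 lowest other genes, the 10 genes furthest apart per pair of libraries and direction, and the 10 most like the kallikrein sum, of which the text describes a part; genes of the distal stretch, of its split and of its edge, and uncalled list genes, were chosen after their values were seen. Leukocytes were cells with Ptprc of at least 2 UMIs and no Epcam. Positions came from an annotation of GRCm38, matched by gene identifier for 30934 of 31053 genes, and promoter sequences from RefSeq (GRCm38.p6), where 8 of 8 genes looked up were matched. Python 3.11, scanpy 1.11.5 (Scrublet), scipy 1.17.1, R 4.3.3 and edgeR 4.0.16 (TMM factors only) were used. Only the fold calls were tested on simulated data, drawn as Poisson sums per library, which lack the uneven spread of UMIs over cells seen here. The kidney libraries were not analysed here. Some genes that met the naming rule are not reported here.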

Additional observations from a re-analysis of the deposited data

Results flagged for a closer look

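Within the kallikrein-high cells, 2 genes moved in opposite directions at the 2 platform intervals by more than 2 times against the control. The keratin Krt17 was 0.182 times the control at 15 min and 3.07 times at 60 min. Ctla2a was 3.44 times the control at 15 min and 0.218 times at 60 min. The difference was not tested, since each condition has 1 library. Krt17 was held by 13, 13 and 12 cells and Ctla2a by 3, 6 and 2 cells in the control, 15 min and 60 min libraries, and 1 cell gave 79.5% of the Ctla2a UMIs at 15 min.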

How the results depend on the processing

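No paired analysis was possible because each condition has 1 library, and for the same reason no library could be left out. The 15 min library held the highest share of kallikrein-high cells under every alternative tried; the largest move came with gate cells as the denominator (4.27, 7.25 and 4.51%), and a kallikrein sum of at least 6 gave 1.83% in the control. Against 421 higher and 208 lower genes (43 and 17 in the lists, 239 against each program), a fold of 3 gave 207 and 88, with 107 against each program. A mean of at least 50 CPM gave 194 and 68 (26 and 11 in the lists, 134 against each program), and no level filter gave 678 and 422. The remaining alternatives were chosen after seeing the data: without the distal chromosome 11 genes 147 genes stood against each program; members of at least 5% gave 318 lower genes and 367 against each program; members under 5% gave 75 and 93 (8 and 10 in the lists, 25 against each program), with 163 of the 503 cells. The counts for members of at least 5% and under 5% include the stretch genes by which these members were sorted. Leaving out the highest 5% of member cells per gene gave 197 and 665 (23 and 42 in the lists, 107 against each program). This last step removes counts from members and not from the other cells, which lowers every ratio. Between libraries, in the order 15 min over control, 60 min over control and 60 over 15 min, a fold of 3 gave 70, 52 and 43 higher and 48, 46 and 42 lower genes, and a mean of at least 50 CPM gave 33, 43 and 54 higher and 64, 28 and 13 lower. TMM scaling gave 191 and 219 for 15 min over control and 197 and 104 for 60 over 15 min. With members of at least 5%, 385 were higher and 371 lower for 60 min over control, and 400 lower for 60 over 15 min. Depth limits genes near 10 CPM, since the kallikrein-high cells of a library held 1231845 to 2840784 UMIs in all.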
